A study of Mus musculus with 192 samples.

Results

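Transcripts of 10 genes that act in lipolysis or on the lipid droplet were followed through 9 tissues of flown and ground mice. Of 54752 genes in the deposited table these were Pnpla2, Abhd5, G0s2, Lipe, Mgll, Lpl, Plin1, Plin2, Cidec and Hcar1. They were taken by gene name for their known roles, with no measured value in the rule, but earlier results of these data were known at the choice. RNA came from the epididymal white fat (eWAT), the brown fat between the shoulder blades (iBAT), the liver (Liv), the cerebrum (Cbr), the kidney (Kid), the spleen (Spl), the thymus (Thy), the temporal bone (TpB) and the mandible (MdB). The 4 groups were wild-type (WT) mice and mice lacking the transcription factor Nrf2 (Nrf2-KO), of which GC_WT and GC_KO stayed on the ground and FL_WT and FL_KO lived on the space station. The labels give the strain as C57BL/6 (C57BL/6J in the study's account) and the age as 12 weeks, which by that account was about the age at transport, so the mice were older when the tissues were taken. They were males housed singly, and both flight and ground mice had been chosen for the absence of a hepatic shunt, a vessel defect known in this knockout. Flight mice were dissected after return to Earth, and the ground experiment was run later at another site, so flight, landing, date and site cannot be told apart. Flight mouse 04, an Nrf2-KO mouse with intestinal bleeding that the study set aside, was also left out here, which kept 184 of 192 samples, with 6, 6, 6 and 5 mice in GC_WT, FL_WT, GC_KO and FL_KO, 3 mice in each group of Kid, and 3, 3, 3 and 2 in MdB.

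Fat cells store triglyceride in a lipid droplet and release it by stepwise hydrolysis. Adipose triglyceride lipase (Pnpla2) removes the initial fatty acid with the help of its coactivator Abhd5 and is held back by the small inhibitor G0s2, hormone-sensitive lipase (Lipe) acts on the diglyceride that is left, and monoglyceride lipase (Mgll) frees the glycerol. Perilipin 1 (Plin1) coats the droplets of fat cells and controls access of the lipases, perilipin 2 (Plin2) coats droplets in most cell types and rises in liver when fat accumulates, and Cidec lets droplets fuse and grow. Lipoprotein lipase (Lpl) acts outside the cell and draws fatty acids from circulating particles, and Hcar1 is the lactate receptor through which fat cells damp lipolysis.

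Levels are given as TPM, transcripts relative to all transcripts of the sample with gene length taken into account. Differences are log2 fold changes from edgeR on counts scaled by TMM, a scaling that sets the median gene near no change, and "called" stands for an adjusted p below 0.05 in edgeR's quasi-likelihood test, adjusted over every gene tested in the tissue. Samples held 8007523 to 16308175 expected counts, with the lowest totals in Thy. The TPM and TMM scales can part, since TPM has the same total in every sample while TMM sets the median gene near no change. Neither scale measures the total amount of RNA. The median gene stood higher in flight on the TPM scale by a log2 difference of 0.24 in WT and 0.33 in Nrf2-KO mice in iBAT. The difference was 0.19 in both genotypes in Thy, 0.17 in WT mice in TpB, and 0.12 in Nrf2-KO mice in Liv. Nfe2l2, the deleted gene, stood at 28.2 to 47.9% of its WT level in the Nrf2-KO samples of 8 tissues and at 81.9% in Spl, and the genotypes did not overlap in any tissue.

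In the mouse genome (GRCm38) Pnpla2 lies at chr7:141455198-141460743 (plus strand), Abhd5 at chr9:122351608-122381524 (plus), G0s2 at chr1:193272161-193273217 (minus), Lipe at chr7:25379527-25398710 (minus), Mgll at chr6:88724412-88828360 (plus), Lpl at chr8:68880491-68907448 (plus), Plin1 at chr7:79720218-79732903 (minus), Plin2 at chr4:86648386-86670060 (minus), Cidec at chr6:113424634-113435760 (minus) and Hcar1 at chr5:123876736-123880020 (minus). Antisense genes overlap Abhd5 and Lipe, Lamb3 overlaps G0s2 on the opposite strand, and Mgll overlaps 5 genes without an annotated protein, so that reads of these 4 members could be shared with their neighbours. The strand setting of the counting is not given in the sources used here.

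The promoter windows of the 4 members that rose in the livers of WT flight mice were read from RefSeq on GRCm38.p6, as the 250 bases before each start, on the gene's strand. Of the 10 members, 9 had an entry, all but Lpl, with 12 windows in all. The window of Plin2 lies at chr4:86670060-86670309 (minus), that of Mgll at chr6:88724162-88724411 (plus), that of G0s2 at chr1:193273189-193273438 (minus) and that of Cidec at chr6:113435761-113436010 (minus). Capitals mark a match to 1 of the motifs described after them.
Plin2: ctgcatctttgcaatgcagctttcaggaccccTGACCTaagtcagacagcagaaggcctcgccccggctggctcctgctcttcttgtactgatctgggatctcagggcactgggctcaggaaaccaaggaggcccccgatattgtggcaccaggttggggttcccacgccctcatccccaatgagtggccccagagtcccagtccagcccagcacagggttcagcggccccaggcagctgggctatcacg
Mgll: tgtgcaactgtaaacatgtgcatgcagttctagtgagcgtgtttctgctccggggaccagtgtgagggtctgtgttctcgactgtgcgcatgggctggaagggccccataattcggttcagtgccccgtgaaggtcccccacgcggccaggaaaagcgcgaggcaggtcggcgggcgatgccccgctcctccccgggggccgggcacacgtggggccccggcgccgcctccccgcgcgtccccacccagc
G0s2: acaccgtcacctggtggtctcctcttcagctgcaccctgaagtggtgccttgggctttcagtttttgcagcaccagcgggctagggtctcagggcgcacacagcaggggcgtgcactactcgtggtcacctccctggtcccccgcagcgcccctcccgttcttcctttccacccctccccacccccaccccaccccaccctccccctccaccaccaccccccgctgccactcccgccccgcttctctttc
Cidec: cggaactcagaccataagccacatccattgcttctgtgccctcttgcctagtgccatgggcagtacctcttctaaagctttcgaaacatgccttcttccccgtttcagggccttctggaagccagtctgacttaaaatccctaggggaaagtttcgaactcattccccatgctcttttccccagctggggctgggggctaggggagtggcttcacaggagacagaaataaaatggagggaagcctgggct
The motifs searched on both strands were TGACNNNGC, the core of the element bound by NRF2, AGGTCA, the hexamer read by nuclear receptors, and the direct repeat of AGGTCA spaced by 1 base, which PPAR binds with RXR and which contains the hexamer. Of 32851 windows of the same length, 10.2% held TGACNNNGC, 14.0% held AGGTCA and 0.0335% held the direct repeat. Among the 12 windows AGGTCA matched in Plin2 (positions -218 to -213, minus strand) and in Abhd5 (positions -69 to -64, minus strand), and the other motifs had no match in these windows. A match is a run of letters and not a shown binding site, and the share of windows with AGGTCA was 2 of 12 here.

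In GC_WT mice 9 of the 10 members were most abundant in eWAT, and iBAT came next for each of these. The exception was Plin2, with 305 ± 50.3 TPM in iBAT against 195 ± 34.2 in eWAT (mean ± SD, n = 6), and the ranges of these tissues overlapped. On this scale, which allows for length, Cidec had the highest level in eWAT (6079 ± 789 TPM), followed by Lpl (4329 ± 581), Pnpla2 (3545 ± 391), Plin1 (1776 ± 187) and Lipe (1441 ± 119.5). The ranges of Lpl and Pnpla2 overlapped, as did those of Plin1 and Lipe, and those of Cidec and Lpl did not. Below these came G0s2 (728 ± 166), Mgll (690.5 ± 55.1), Plin2, Hcar1 (113 ± 29.9) and Abhd5 (109.8 ± 11.6). Together the members made up 1.90% of all TPM in eWAT, 0.661% in iBAT and 0.0491% in Liv of GC_WT mice.

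Outside fat the order of tissues differed between members. Mgll stood at 100.1 ± 8.70 TPM in Liv and at 99.9 ± 7.01 in Cbr, and these ranges overlapped. After the fat depots Lpl was highest in Kid (306 ± 39.7 TPM, n = 3) and lowest in Liv (3.50 ± 1.64). G0s2 reached 398 ± 143 TPM in MdB (n = 3), where Plin1 was at 0 to 0.0400, and 171 ± 53.1 in Liv, and its ranges in eWAT, iBAT and MdB overlapped. Pnpla2 followed in TpB (184 ± 43.2 TPM), Spl (82.6 ± 8.24), Kid (57.0 ± 2.53, n = 3) and Liv (56.5 ± 11.9), the last pair overlapping. Plin2 was broad, with 131 ± 17.5 TPM in Liv and from 49.0 in Kid down to 30.7 in TpB and 4.01 in Cbr on average. Plin1 and Hcar1 were at 0 to 0.180 and 0 to 0.0600 TPM in Liv, and these were the members that did not pass the filter on low counts there.

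**Figure D1:**
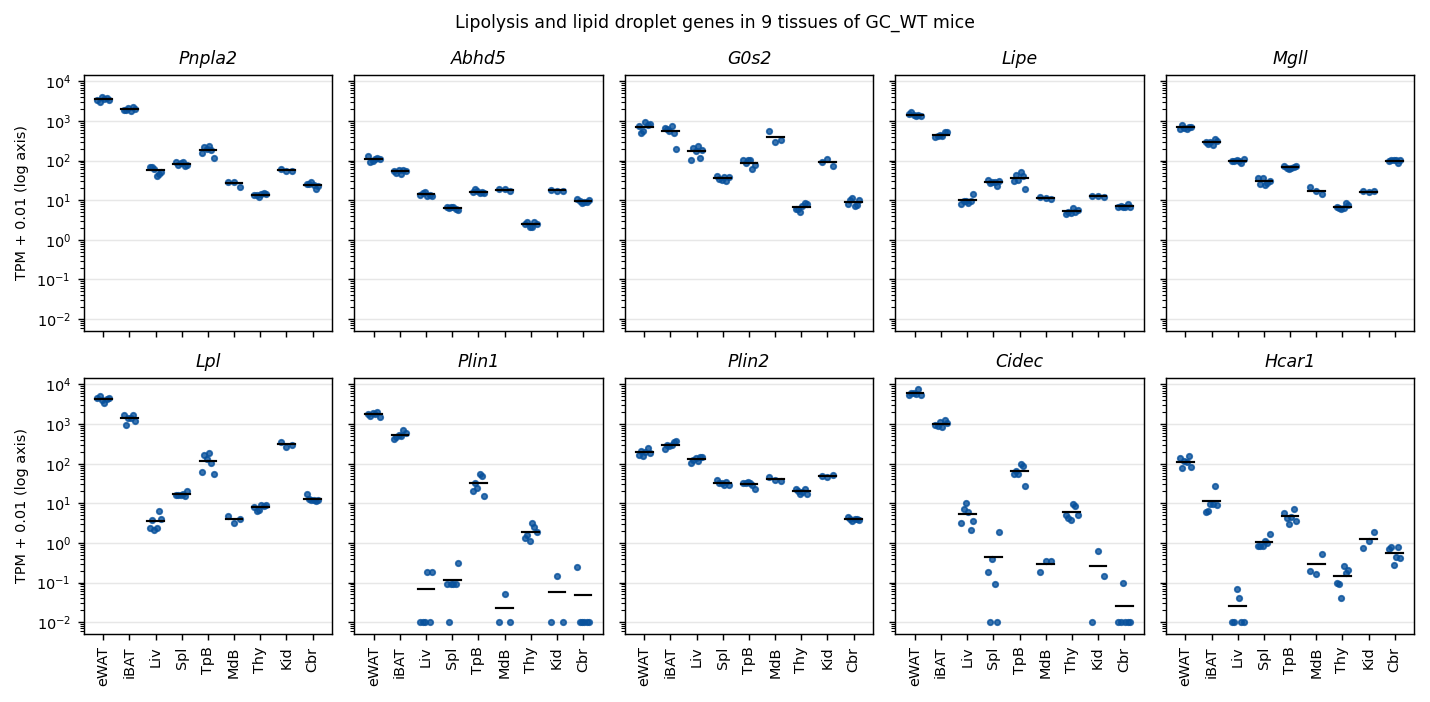
Level of each of the 10 members in 9 tissues of GC_WT mice, as TPM plus 0.01 on a log axis. Dots are mice (6 per tissue, 3 in MdB and Kid) and bars are means. Dots on the lowest line are values of 0, and 9 of the 10 members have their highest mean in eWAT.

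Across the 36 group means of 9 tissues and 4 groups, the gene most like Pnpla2 among 17836 genes was Lipe (Pearson r = 0.98 on log2(TPM + 1)), followed by Btnl9 and Dgat1 (both 0.96). Plin1 was most like Adig, Adipoq and A530053G22Rik (r = 0.98 for the last), Plin2 like Agpat2 (0.97), Acads and Gm7666, and G0s2 like Dnajc25 (0.95), Cebpb and Hyal1. These r are a description over points that share tissues and libraries.

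In eWAT, Mgll and Plin2 rose and Lpl and Abhd5 fell in WT flight mice, and Mgll and Hcar1 rose in Nrf2-KO flight mice. Of 10 members tested, 2 were called higher and 2 lower in FL_WT against GC_WT, where 6.65% of all genes were called higher and 6.78% lower. In FL_KO against GC_KO 2 were called higher and 0 lower, against 3.73% and 3.98% of all genes. Counted with limma on log2(TPM + 1), 1823 genes were higher and 460 lower in FL_WT, in place of 1019 and 1038 with edgeR. In FL_KO the split was 611 and 314 in place of 572 and 609. Limma tested 10884 genes here and edgeR 15317. The median log2 fold change of the members was -0.11 in WT and 0.11 in Nrf2-KO mice, against 0.00 and -0.01 over all genes tested. Of the members 5 of 10 had the same sign in both genotypes, a share that was not counted over all genes.

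Mgll, which frees glycerol from the last monoglyceride, lay at 633 to 777 TPM (median 687) in GC_WT and at 896 to 1156 TPM (median 1038) in FL_WT. In Nrf2-KO mice it lay at 629 to 799 TPM (median 669) on the ground and at 1068, 1133, 919, 1011 and 977 TPM in the 5 flight mice. Every flight mouse was above every ground mouse of its genotype. Mgll rose in both genotypes (log2 fold change 0.48 ± 0.09 (SE), adjusted p = 0.000989 in WT and log2 fold change 0.56 ± 0.09 (SE), adjusted p = 0.000938 in Nrf2-KO mice). Of the genes that overlap Mgll, 3 lie on its own strand.

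Lpl, by which fat takes up lipid from the blood, lay at 3354 to 5065 TPM (median 4466) in GC_WT and at 2712 to 3459.8 TPM (median 3265) in FL_WT, with an overlap of the ranges. It fell in FL_WT (log2 fold change -0.55 ± 0.11 (SE), adjusted p = 0.00266). In Nrf2-KO mice it was at 3561 to 4927 TPM (median 3919) on the ground and at 3523, 3600.2, 3113, 3392 and 3231 in flight, a difference that missed the threshold (log2 fold change -0.27 ± 0.12 (SE), adjusted p = 0.172).

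Abhd5, the coactivator of adipose triglyceride lipase, lay at 94.1 to 127 TPM (median 111) in GC_WT and at 74.8 to 104 TPM (median 88.4) in FL_WT. The ranges overlapped, and Abhd5 was called lower (log2 fold change -0.39 ± 0.12 (SE), adjusted p = 0.0365). Without FL_WT mouse 03, whose library had the highest lymphocyte (78.9 TPM) and macrophage (929.7 TPM) marker sums of the tissue, its adjusted p was 0.0908, and without FL_KO mouse 02 it was 0.0507. In Nrf2-KO mice Abhd5 lay at 86.6 to 129 TPM (median 102) and at 90.1, 111, 119.6, 117 and 89.7 TPM in flight (log2 fold change 0.01 ± 0.13 (SE), adjusted p = 0.971).

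Plin2, the droplet coat of most cells, lay at 156 to 253 TPM (median 192) in GC_WT and at 250.2 to 328 TPM (median 285) in FL_WT. The ranges overlapped by 1 mouse of each group, and Plin2 rose (log2 fold change 0.44 ± 0.13 (SE), adjusted p = 0.0249). In Nrf2-KO mice it was at 169 to 289.5 TPM (median 217) and at 201, 264, 202, 266 and 291 TPM in flight (log2 fold change 0.12 ± 0.13 (SE), adjusted p = 0.637). Plin1, the coat of fat cells, was not called in either genotype, with log2 fold changes of -0.14 (adjusted p = 0.453) and 0.07 (adjusted p = 0.768).

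Hcar1, the lactate receptor, lay at 78.4 to 154 TPM (median 114) in GC_WT and at 46.5 to 71.2 TPM (median 62.4) in GC_KO, without overlap. In flight it lay at 83.3 to 147 TPM (median 104) in FL_WT and at 85.2, 122, 96.6, 123 and 116 TPM in FL_KO. GC_KO lay below each of the other groups without overlap, and both comparisons with that group were called (log2 fold change -1.03 ± 0.19 (SE), adjusted p = 0.00338 against GC_WT and log2 fold change 0.83 ± 0.20 (SE), adjusted p = 0.0126 for FL_KO against GC_KO). FL_KO and FL_WT overlapped (log2 fold change -0.05 ± 0.20 (SE), adjusted p = 0.964). The test of the difference between the flight responses of the genotypes gave a log2 difference of 0.98 ± 0.27 (SE) and an adjusted p of 0.394.

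The triglyceride lipase Pnpla2, the diglyceride lipase Lipe, the inhibitor G0s2 and the droplet protein Cidec were not called in any contrast of eWAT. Pnpla2 lay at 2952 to 4069 TPM (median 3508) in GC_WT, 2769 to 3921 TPM (median 3407) in FL_WT and 2605 to 3264 TPM (median 2851) in GC_KO, and at 3384, 3200.3, 4105, 3894 and 3689 TPM in FL_KO. The ranges overlapped in each contrast. Its log2 fold changes were -0.19 (adjusted p = 0.336) in WT and 0.31 (adjusted p = 0.128) in Nrf2-KO flight mice, and -0.37 (adjusted p = 0.0963) in GC_KO against GC_WT, where DESeq2 gave an adjusted p of 0.0398. Lipe lay at 1329.5 to 1645 TPM (median 1398) in GC_WT and 1508 to 1746 TPM (median 1613) in FL_WT, and its log2 fold changes in flight were 0.06 (adjusted p = 0.788) in WT and 0.12 (adjusted p = 0.624) in Nrf2-KO mice. Cidec lay at 5298 to 7515 TPM (median 5922) in GC_WT and 5457 to 6827 TPM (median 5927) in FL_WT, with log2 fold changes of -0.09 (adjusted p = 0.72) and 0.11 (adjusted p = 0.701). G0s2 spread widely within groups, from 418 to 1294 TPM among the GC_KO mice, and its log2 fold changes were 0.09 (adjusted p = 0.857) and 0.03 (adjusted p = 0.96).

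Between genotypes, 0 members were called higher and 1 lower (Hcar1) in GC_KO against GC_WT, where 1.33% and 1.41% of all genes were called higher and lower. With limma on TPM these were 222 and 96 genes, in place of 203 and 216. In FL_KO against FL_WT edgeR called 0 of 10, with 0 at an unadjusted p under 0.05, and DESeq2 and limma called 0, while 0.405% of all genes were higher and 0.659% lower.

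**Figure D2:**
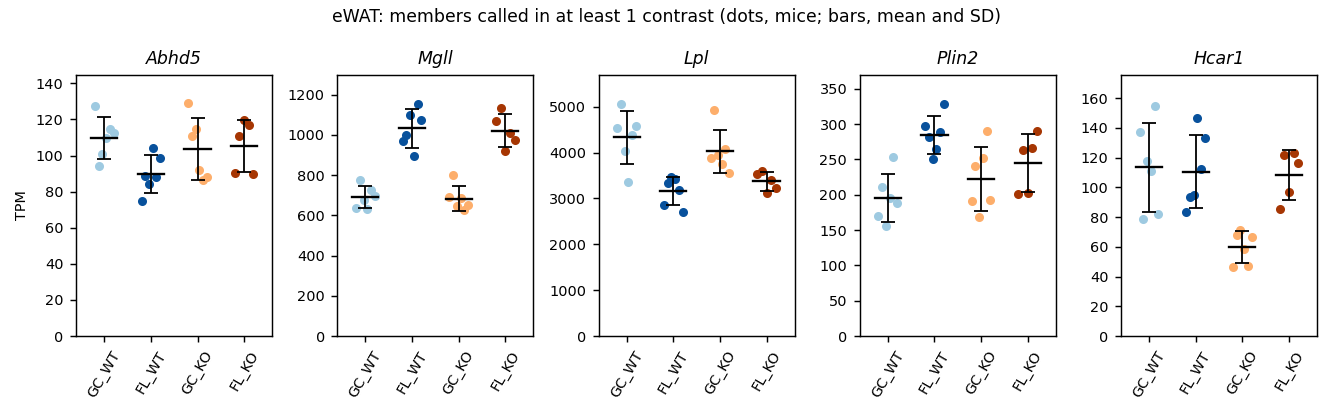
TPM of the 5 members called in at least 1 contrast of eWAT. Dots are mice (6, 6, 6 and 5 in GC_WT, FL_WT, GC_KO and FL_KO), and bars give the mean and SD. Mgll does not overlap between flight and ground in either genotype, and Hcar1 is low in GC_KO.

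In bulk tissue, fewer cells of a type and less RNA per cell cannot be told apart. The 9 adipocyte markers summed to 47913 to 63437 TPM in GC_WT, 41740 to 54141 in FL_WT, 38512 to 48985 in GC_KO and 47475 to 55800 in FL_KO. Of these markers 3 were called lower in FL_WT against GC_WT, 2 lower in GC_KO against GC_WT and 2 higher in FL_KO against GC_KO. The 10 macrophage markers summed to 339 to 467 TPM in GC_WT and 472 to 930 in FL_WT, with 3 called higher and 1 lower. None of the 8 epididymis markers passed the filter. The part of these cell types in the results above was not tested.

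Other genes of the pathway were grouped in lists by role, and no list was tested as a set. Over all genes in eWAT, 6.65% were called higher and 6.78% lower in WT flight mice, and 3.73% and 3.98% in Nrf2-KO flight mice. Of the 13 genes of glycerol and fatty acid transport tested, 2 were called higher in each genotype and 0 lower, and Aqp7, the channel by which glycerol leaves fat cells, went from 106 to 212 TPM in WT (0.90 ± 0.12, log2 fold change ± SE) and from 100.4 to 184 TPM in Nrf2-KO mice (0.85 ± 0.12). The other was the fatty acid carrier Fabp5 in WT (0.77 ± 0.16) and Fabp4 in Nrf2-KO mice (0.51 ± 0.11). Among 12 partners and regulators of Lpl, 2 were higher and 1 lower in WT flight mice. Angptl4, which inactivates Lpl, went from 320.0 to 585 TPM (0.77 ± 0.16), Gpihbp1, which carries Lpl to the capillary wall, from 259.9 to 424 TPM (0.59 ± 0.16), and Lmf1, which helps Lpl fold, from 29.0 to 26.0 TPM (-0.25 ± 0.08). In Nrf2-KO mice 1 was higher, again Angptl4 (1.06 ± 0.16), and 1 lower, Angptl8 (-3.89 ± 0.97), which fell from a mean of 187 TPM with an SD of 261 among the 6 GC_KO mice.

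Of 13 genes of triglyceride synthesis, 0 were called higher and 3 lower in each genotype, among them Gpam (-1.03 ± 0.18) and Mogat1 (-1.02 ± 0.16) in WT and Dgat2 (-0.85 ± 0.17) and Agpat2 (-0.67 ± 0.16) in Nrf2-KO mice. Of 21 genes that carry signals to lipolysis, 2 were higher and 4 lower in WT, and in Nrf2-KO mice 2 higher and 2 lower. The adenylyl cyclases Adcy3 (0.37 ± 0.09 in WT, 0.34 ± 0.09 in Nrf2-KO) and Adcy4 (0.46 ± 0.11 and 0.45 ± 0.12) rose, and the prostaglandin receptor Ptger3 fell (-0.71 ± 0.16 and -0.87 ± 0.16), as did the kinase subunit Prkacb in WT (-0.22 ± 0.07). Of 18 other droplet proteins, 2 were higher (Cavin1 and Hilpda, an inhibitor of adipose triglyceride lipase, with 0.65 ± 0.18) and 4 lower in WT, among them Bscl2 (-0.58 ± 0.08) and Tmem159, and 1 was higher (Cavin1, 0.60 ± 0.10) and 1 lower (Bscl2, -0.29 ± 0.08) in Nrf2-KO mice. Of 10 other lipases, Lipa in WT (0.29 ± 0.07) and Ddhd1 in Nrf2-KO mice (0.48 ± 0.14) were called higher. On the ground the Nrf2-KO mice had lower Hcar2, the receptor for ketone bodies and a paralog of Hcar1 (-0.78 ± 0.20), Pnpla8 (-0.27 ± 0.06) and Slc27a1 (-0.69 ± 0.16), the 3 called genes of these lists in that comparison. In flight only Lipa of these lists was called between genotypes (-0.36 ± 0.07). Over all genes 1.33% were called higher and 1.41% lower between genotypes on the ground, and 0.405% and 0.659% in flight.

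In iBAT the direction of the flight response of several members depended on the scale. The members together made up 0.661% of all TPM in GC_WT and 0.834% in FL_WT, and 0.552% in GC_KO and 0.705% in FL_KO, which is given as a description. Relative to the median gene, edgeR called 1 of 10 members higher and 0 lower in FL_WT against GC_WT (8.83% and 10.3% of all genes), and 0 higher and 4 lower in FL_KO against GC_KO (17.0% and 16.6%). By limma on TPM 6 members were higher and 0 lower in each of these contrasts. With limma on log2(TPM + 1), which tested 8006 genes, 4460 were higher and 291 lower in FL_WT, and 5230 and 435 in FL_KO. EdgeR tested 13574 genes, with 1199 higher and 1401 lower in FL_WT, and 2303 and 2251 in FL_KO. Most genes that limma tested were thus higher in both contrasts, as most members were. The median edgeR log2 fold change of the members was 0.02 in WT and -0.15 in Nrf2-KO mice, against 0.02 and 0.04 over all genes.

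Pnpla2, the triglyceride lipase, lay at 1800.2 to 2229 TPM (median 1923) in GC_WT, 2291 to 2749 TPM (median 2456) in FL_WT and 1601 to 1907 TPM (median 1736) in GC_KO, and at 2047, 1865, 2215, 2030.2 and 2230.0 TPM in FL_KO. As TPM, FL_WT lay above GC_WT without overlap, and FL_KO lay above GC_KO except for 1 mouse. The edgeR log2 fold change was 0.02 (adjusted p = 0.851) in WT and -0.18 ± 0.06 (SE, adjusted p = 0.0296) in Nrf2-KO mice, whereas on the TPM scale limma gave 0.25 (adjusted p = 0.00121) in the latter, the opposite direction. The edgeR call in Nrf2-KO mice had adjusted p of 0.0594, 0.0853 and 0.0620 without FL_KO mouse 02, 11 or 12. FL_KO lay below FL_WT without overlap (log2 fold change -0.29 ± 0.06 (SE), adjusted p = 0.0109).

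Lipe and Mgll, the lipases of the later steps, showed the same dependence on scale. Lipe lay at 386 to 541 TPM (median 434) in GC_KO and at 539, 433, 512, 531 and 575 TPM in FL_KO, and was called lower by edgeR (log2 fold change -0.23 ± 0.09 (SE), adjusted p = 0.0429) but had a log2 difference of 0.20 (adjusted p = 0.106) by limma on TPM, and edgeR's adjusted p was 0.110, 0.0651, 0.0873 and 0.0638 without FL_KO mouse 02, 09, 11 or 12. Mgll lay at 264 to 289 TPM (median 274) in GC_KO and at 315, 283, 339.9, 335 and 358 in FL_KO, and was called lower by edgeR (log2 fold change -0.19 ± 0.06 (SE), adjusted p = 0.0117) but higher by limma on TPM (0.24, adjusted p = 0.00788). Neither passed in WT mice, with edgeR log2 fold changes of 0.16 (adjusted p = 0.193) for Lipe and 0.06 (adjusted p = 0.498) for Mgll. Mgll was also lower in FL_KO than in FL_WT, at 322 to 396 TPM (median 382) in the latter (log2 fold change -0.24 ± 0.06 (SE), adjusted p = 0.024), and without FL_KO mouse 02, 11 or 12 the adjusted p was 0.0714, 0.0664 and 0.0625.

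Plin2 lay at 294 to 475 TPM (median 363) in GC_KO and at 336, 355, 292, 263 and 345 TPM in FL_KO, with an overlap. It fell in FL_KO by edgeR (log2 fold change -0.63 ± 0.14 (SE), adjusted p = 0.00136) and was below GC_KO also on the TPM scale, where the difference was not called (-0.20, adjusted p = 0.217). In WT mice it was at 238 to 377 TPM (median 293) and 257 to 421 TPM (median 331) (log2 fold change -0.14 ± 0.13 (SE), adjusted p = 0.481). Plin1 lay at 427 to 715 TPM (median 509) in GC_WT and at 638 to 888 TPM (median 729) in FL_WT, with an overlap, and passed the threshold narrowly (log2 fold change 0.22 ± 0.08 (SE), adjusted p = 0.049). That call was lost under 10 of 15 alternatives, among them leaving out FL_KO mouse 02, 09, 11 or 12, mice outside this comparison (adjusted p 0.0505 to 0.0551). In Nrf2-KO mice Plin1 lay at 436 to 505 TPM (median 468) in GC_KO and at 666, 667, 619.9, 682 and 727 TPM in FL_KO, all above GC_KO. EdgeR did not call this difference (log2 fold change 0.14 ± 0.08 (SE), adjusted p = 0.195), while limma on TPM called it higher (0.51, adjusted p = 0.000133).

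Lpl differed by genotype on the ground. It lay at 962 to 1702 TPM (median 1420.5) in GC_WT and at 639 to 979 TPM (median 801) in GC_KO, with an overlap of 1 mouse of each group, and was lower in GC_KO (log2 fold change -0.70 ± 0.13 (SE), adjusted p = 0.00474), a call kept in all 14 alternatives. In flight it lay at 1641 to 2057 TPM (median 1720.3) in FL_WT and at 1116, 1486, 1604, 1336 and 1167 TPM in FL_KO, without overlap as TPM and with a log2 fold change of -0.44 (adjusted p = 0.143). The flight response was 0.03 (adjusted p = 0.912) in WT and 0.29 (adjusted p = 0.116) in Nrf2-KO mice.

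In all, 0 members were higher and 1 lower in GC_KO against GC_WT (1.02% and 1.13% of all genes, or 53 and 225 genes by limma on TPM in place of 138 and 153), and 0 higher and 2 lower in FL_KO against FL_WT (0.228% and 1.27%). The median log2 fold change of the members was -0.11 and -0.23 in these comparisons. Abhd5 (-0.06 in WT and 0.14 in Nrf2-KO flight mice), G0s2 (-0.20 and -0.03), Cidec (0.03 and -0.12) and Hcar1 (-0.53 and -0.18) were not called by edgeR in any contrast of iBAT. G0s2 ranged over 197 to 761 TPM within GC_WT and Hcar1 over 6.06 to 27.4.

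**Figure D3:**
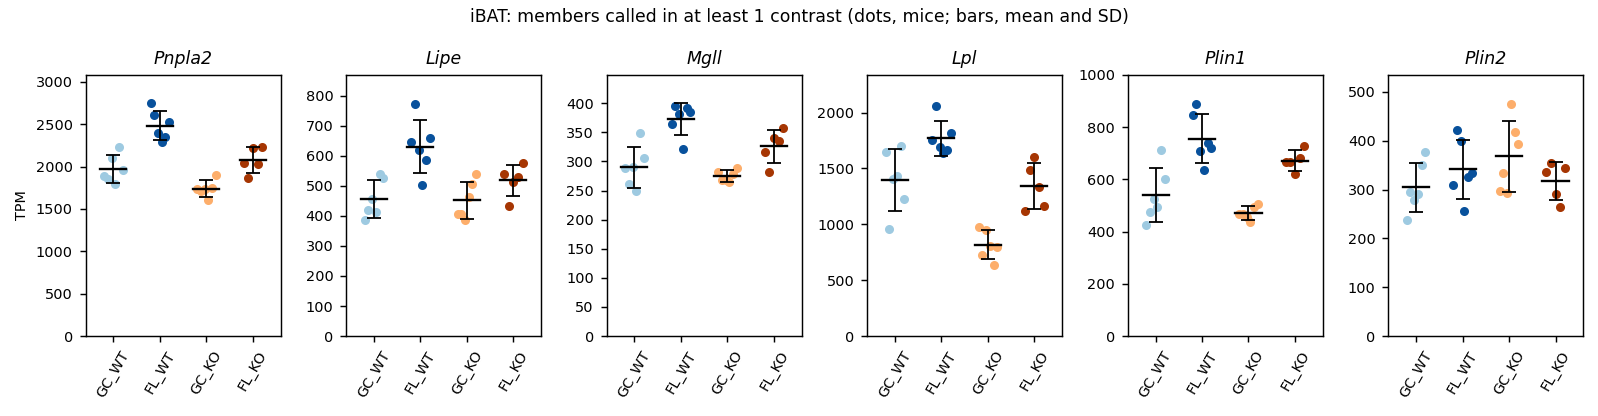
TPM of the 6 members called in at least 1 contrast of iBAT. Dots are mice (6, 6, 6 and 5 in GC_WT, FL_WT, GC_KO and FL_KO), and bars give the mean and SD. Pnpla2 is higher in flight as TPM in both genotypes, which is the scale on which its direction in Nrf2-KO mice differs from that of edgeR, and Lpl is lowest in GC_KO.

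In iBAT 3 libraries stood apart. The 10 skeletal muscle markers summed to 8183 TPM in FL_WT mouse 06, 3883 in FL_WT mouse 08 and 10169 in FL_KO mouse 11, against 2.53 to 84.1 in the others, and 7 of the 10 were called higher in WT and 8 in Nrf2-KO flight mice. Without these libraries the calls on Pnpla2 (adjusted p = 0.0755) and Mgll (0.295) in FL_KO against FL_WT were lost, as were those on Pnpla2 (0.103) and Lipe (0.103) in FL_KO against GC_KO and on Plin1 in WT (0.0988), while Plin2, Mgll in FL_KO against GC_KO, and Lpl kept theirs. The erythroid markers summed to 604 to 1091 TPM in GC_WT and 336 to 538 in FL_WT, and 5 of 5 tested were lower in flight in each genotype. Of 9 macrophage markers tested, 6 were higher in FL_KO against GC_KO. Of 9 adipocyte markers, 1 was called higher and 1 lower in flight in each genotype. Their part in the results was not tested.

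Of the other pathway genes in iBAT, 5 of 12 genes of glycerol and fatty acid transport were called higher and 1 lower in WT flight mice, and 7 and 1 in Nrf2-KO mice. Aqp7 went from 57.1 to 108 TPM in WT (0.61 ± 0.08) and from 43.9 to 90.5 TPM in Nrf2-KO mice (0.60 ± 0.08). The fatty acid receptor and carrier Cd36 rose in WT (0.48 ± 0.07), Slc27a2 rose in Nrf2-KO mice (1.08 ± 0.19), and Fabp5 fell in both (-1.04 ± 0.16 and -1.96 ± 0.18). Of 12 genes of triglyceride synthesis, 2 were higher and 4 lower in WT, and 1 higher and 4 lower in Nrf2-KO mice. Lpin1, a phosphatidate phosphatase (-0.89 ± 0.14 and -1.48 ± 0.15), and Mogat1 (-0.89 ± 0.15 and -1.63 ± 0.17) fell, and Gpat3 rose (1.32 ± 0.33 and 1.62 ± 0.35).

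Of 17 other droplet proteins in iBAT, 3 were higher and 4 lower in WT, and 6 higher and 7 lower in Nrf2-KO mice. Plin3, another perilipin, fell in both (-0.78 ± 0.14 and -1.08 ± 0.15), Pnpla3 fell in WT (-1.86 ± 0.34) and Acsl3 in Nrf2-KO mice (-0.86 ± 0.13). Cavin1 (0.49 ± 0.13) and Cav1 (0.37 ± 0.10) rose in WT, and Aup1 (0.27 ± 0.06) and Tmem159 (0.56 ± 0.14) in Nrf2-KO mice. Of 20 genes that signal to lipolysis, 4 were higher and 0 lower in WT, among them Adcy4 and the beta adrenergic receptor Adrb1 (0.89 ± 0.19), and 4 higher and 1 lower in Nrf2-KO mice, among them Adcy4 (0.70 ± 0.11), Gnai1 (0.70 ± 0.17) and, lower, Ptger3 (-1.12 ± 0.21). Of 11 Lpl partners and regulators, Angptl4 was the 1 called in WT (1.14 ± 0.34), and in Nrf2-KO mice 3 were higher and 2 lower, with Angptl8 at -2.07 ± 0.50 and Lrp1 at 0.68 ± 0.17. Of 9 other lipases, 2 were higher in WT and 4 higher and 3 lower in Nrf2-KO mice, with Abhd12 at 0.28 ± 0.09 and 0.42 ± 0.09. Over all genes in iBAT, 8.83% were called higher and 10.3% lower in WT flight mice, and 17.0% and 16.6% in Nrf2-KO flight mice. Several of the list counts lie near these shares. These list counts in iBAT are by edgeR, relative to the median gene, and a gene called lower could be higher as TPM. Lmf1 (-0.31 ± 0.09) went from 18.9 to 20.6 TPM in Nrf2-KO mice, and Pnpla8 (-0.26 ± 0.07) from 76.7 to 88.0 TPM.

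Between genotypes in iBAT, Ptger3 (0.93 ± 0.19) and Fabp5 (0.79 ± 0.16) were higher and Slc27a2 (-0.92 ± 0.18), Gpat4 (-0.65 ± 0.17), Aqp7 (-0.30 ± 0.08) and Hsd17b11 (-0.31 ± 0.08) lower in GC_KO against GC_WT. In FL_KO against FL_WT 6 genes of the lists were lower and 0 higher, among them Cidea, the droplet protein of brown fat akin to Cidec (-0.44 ± 0.11), Ddhd2 (-0.50 ± 0.09) and Lmf1 (-0.44 ± 0.09). Over all genes 1.27% were called lower and 0.228% higher in that contrast.

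In Liv, the droplet proteins Plin2 and Cidec, the lipase inhibitor G0s2 and the lipase Mgll rose, and Lpl fell, in WT flight mice. Of 8 members tested, 4 were called higher and 1 lower in FL_WT against GC_WT, where 1.53% and 1.91% of all genes were. None of these 5 overlapped between the groups, and all were called in every alternative that tested them. In Liv mice were left out in turn only from FL_KO, so no run left out a mouse of this contrast. The 5 were taken because they were called, so their lack of overlap is no separate support. The share of all genes without overlap was not counted. In FL_KO against GC_KO 2 were called higher and 0 lower (1.31% and 2.02% of all genes). All 8 had the same sign in both genotypes, a share that was not counted over all genes. With limma on TPM, 552 genes were higher and 101 lower in FL_WT, in place of 206 and 257, and 1338 and 153 in FL_KO, in place of 176 and 272. Limma tested 8349 genes here and edgeR 13433. The median log2 fold change of the members was 0.35 in WT and 0.28 in Nrf2-KO mice, against 0.00 and 0.01 over all genes.

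G0s2, the inhibitor of adipose triglyceride lipase, lay at 101 to 238 TPM (median 180.1) in GC_WT and at 259 to 547 TPM (median 503) in FL_WT. The groups did not overlap, and G0s2 rose from 171 ± 53.1 to 459.8 ± 112 TPM (mean ± SD, n = 6 each; log2 fold change 1.36 ± 0.27 (SE), adjusted p = 0.00895). In Nrf2-KO mice it was at 113 to 336 TPM (median 222) on the ground and at 226, 365, 537, 305 and 467 TPM in flight, with an overlap (log2 fold change 0.59 ± 0.28 (SE), adjusted p = 0.321).

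Cidec, which enlarges droplets, lay at 2.08 to 9.95 TPM (median 4.80) in GC_WT and at 15.2 to 30.1 TPM (median 21.0) in FL_WT, and rose (log2 fold change 1.91 ± 0.49 (SE), adjusted p = 0.0323). In GC_KO it lay at 0.560 to 3.80 TPM (median 2.40), and the 5 FL_KO mice stood at 12.9 and 11.5 TPM (mice 01 and 02) and 2.95, 2.30 and 1.44 TPM (mice 09, 11 and 12). Every FL_KO mouse was below every FL_WT mouse, and the difference missed the threshold (log2 fold change -1.77 ± 0.51 (SE), adjusted p = 0.0561), with adjusted p of 0.0441 by DESeq2, 0.00677 by limma on TPM, and 0.0181 and 0.0287 without FL_KO mouse 01 or 02. For FL_KO against GC_KO it was log2 fold change 1.48 ± 0.56 (SE), adjusted p = 0.182. With the mouse number as a block, which joins different animals, this became 1.54 with an adjusted p of 0.0172.

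Plin2 lay at 107 to 152 TPM (median 132) in GC_WT and at 192 to 283 TPM (median 244) in FL_WT, and rose without overlap (log2 fold change 0.83 ± 0.15 (SE), adjusted p = 0.00413). In Nrf2-KO mice it was at 90.1 to 192 TPM (median 133) and at 252, 235, 192, 243 and 235 TPM in flight. It was called higher there too (log2 fold change 0.62 ± 0.16 (SE), adjusted p = 0.0271), but the lowest flight mouse and the highest ground mouse both stood at 192 TPM, and the adjusted p was 0.0633 with the mouse number as a block, 0.0760 without FL_KO mouse 01, 0.0719 without mouse 02 and 0.0511 without mouse 11. Its promoter window above held the AGGTCA match.

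Mgll lay at 87.6 to 113 TPM (median 99.5) in GC_WT and at 126 to 172 TPM (median 144) in FL_WT, and at 89.1 to 120.2 TPM (median 104) in GC_KO and 187, 183, 156, 148 and 169.9 TPM in FL_KO. Flight and ground did not overlap in either genotype. Mgll rose in both (log2 fold change 0.51 ± 0.10 (SE), adjusted p = 0.0085 in WT, log2 fold change 0.55 ± 0.11 (SE), adjusted p = 0.0043 in Nrf2-KO mice), as it did in eWAT. Lpl was low in Liv, at 2.08 to 6.44 TPM (median 3.10) in GC_WT and 0.920 to 1.80 TPM (median 1.45) in FL_WT, and fell (log2 fold change -1.36 ± 0.24 (SE), adjusted p = 0.00298). In Nrf2-KO mice Lpl was at 1.87 to 3.62 TPM (median 2.18) and at 2.56, 1.29, 1.71, 1.64 and 2.32 TPM in flight (log2 fold change -0.52 ± 0.25 (SE), adjusted p = 0.321).

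**Figure D4:**
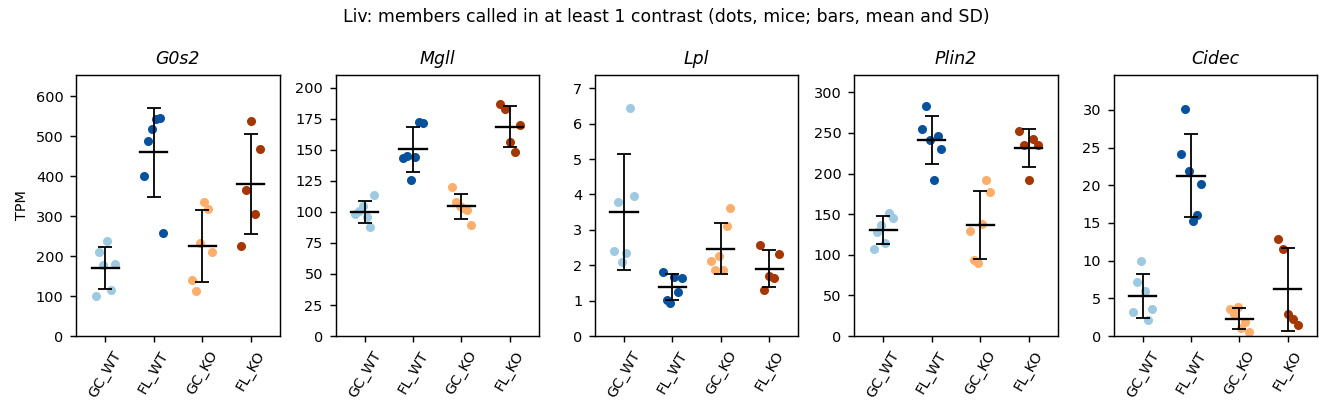
TPM of the 5 members called in at least 1 contrast of Liv. Dots are mice (6, 6, 6 and 5 in GC_WT, FL_WT, GC_KO and FL_KO), and bars give the mean and SD. In WT mice flight and ground do not overlap for any of the 5, and the FL_KO mice split for Cidec into 2 near 12 TPM and 3 below 3 TPM.

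Pnpla2 itself was not called in Liv. It lay at 42.2 to 69.8 TPM (median 56.3) in GC_WT, 48.3 to 89.5 TPM (median 67.8) in FL_WT and 34.9 to 84.4 TPM (median 51.4) in GC_KO, and at 85.2, 82.1, 46.4, 39.9 and 48.0 TPM in FL_KO, with log2 fold changes of 0.19 (adjusted p = 0.802) in WT and 0.02 (adjusted p = 0.989) in Nrf2-KO flight mice. All groups overlapped, and within each the mice numbered up to 06 were the higher ones. Abhd5 lay at 12.8 to 16.5 TPM (median 13.6) in GC_WT and 11.7 to 14.4 TPM (median 13.1) in FL_WT, and its log2 fold changes were -0.17 (adjusted p = 0.562) in WT and -0.40 (adjusted p = 0.135) in Nrf2-KO mice. Lipe lay at 8.09 to 14.3 TPM (median 9.49) and 8.43 to 12.5 TPM (median 9.89), with log2 fold changes of -0.03 (adjusted p = 0.957) and -0.22 (adjusted p = 0.606).

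Between genotypes edgeR called 0 of 8 members in GC_KO against GC_WT, with 2 at an unadjusted p under 0.05 and 0 by DESeq2 and by limma, where 0.938% of all genes were higher and 1.70% lower. In FL_KO against FL_WT it called 0, with 1 at an unadjusted p under 0.05, and DESeq2 and limma each called 1, which was Cidec, where 1.36% of all genes were higher and 2.29% lower (186 and 154 genes by limma on TPM, in place of 183 and 307).

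Fat cell transcripts were scarce in Liv. Of 9 adipocyte markers 4 had a mean of at least 1 TPM in GC_WT, Lep and Retn were at 0 in every GC_KO mouse, and the list summed to 129 to 164 TPM in GC_WT and 148 to 214 in FL_WT, with 1 of 4 tested called higher. Plin1 was between 0 and 0.280 TPM in all livers but that of FL_KO mouse 01, at 1.15, 1 of the mice with high Cidec. The erythroid markers summed to 569.9 to 801 TPM in GC_WT and 234 to 399 in FL_WT, and 4 of 5 tested were lower in WT and 1 in Nrf2-KO flight mice. Their part in the results was not tested.

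Of the other pathway genes in Liv, 2 of 17 other droplet proteins were called higher in each genotype and 0 lower. These were Hsd17b11 (0.50 ± 0.13 in WT and 0.62 ± 0.13 in Nrf2-KO), Cideb in WT (0.25 ± 0.07) and Plin5 in Nrf2-KO mice (0.67 ± 0.18). Among 13 Lpl partners and regulators, the hepatic lipase Lipc rose in both genotypes (0.43 ± 0.09 and 0.54 ± 0.10). In transport, glycerol kinase Gk (0.45 ± 0.10) and Cd36 (0.85 ± 0.21) rose and Fabp5 fell (-1.27 ± 0.32) in WT, and Fabp5 fell in Nrf2-KO mice (-1.22 ± 0.32). Agpat3, an enzyme of triglyceride synthesis, rose in WT (0.31 ± 0.07). None of 16 signalling genes or 10 other lipases were called by edgeR in the flight contrasts of Liv. Over all genes 1.53% were called higher and 1.91% lower in WT flight mice, and 1.31% and 2.02% in Nrf2-KO flight mice.

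By genotype, the droplet-forming protein Fitm1 was lower in Nrf2-KO livers on the ground (30.3 to 8.01 TPM, -1.95 ± 0.25) and in flight (-2.03 ± 0.26). So were Cd36 (-1.33 ± 0.22 and -1.42 ± 0.23) and the adenosine receptor Adora1 (-2.32 ± 0.18 and -2.28 ± 0.19). Fabp4 was higher in FL_KO than in FL_WT (0.86 ± 0.24).

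**Figure D5:**
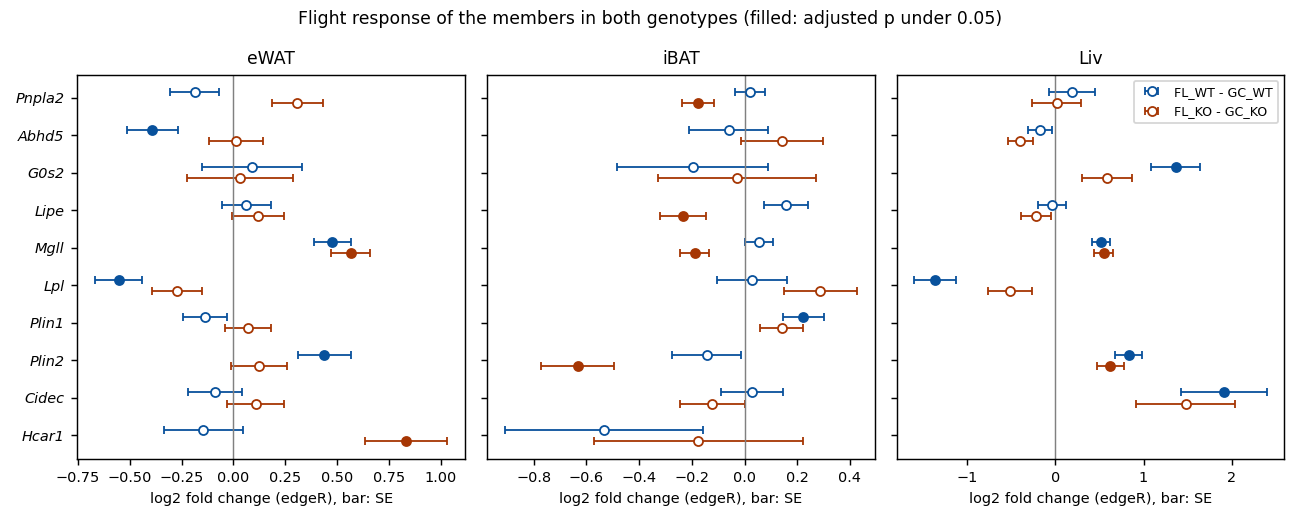
Log2 fold change of flight against ground from edgeR for each member in eWAT, iBAT and Liv, with bars of 1 SE and an axis scaled to each tissue. Blue is WT and brown Nrf2-KO, and filled points were called. Plin1 and Hcar1 were not tested in Liv. Mgll is called higher in both genotypes in eWAT and Liv, and lower in Nrf2-KO mice in iBAT, a direction that turns on the TPM scale.

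Ratios of paired members were formed within each sample, since these do not depend on the scaling of a library. The log2 ratio of Pnpla2 to its inhibitor G0s2 in Liv went from -1.55 ± 0.63 in GC_WT to -2.76 ± 0.59 in FL_WT (SD, n = 6 each), a difference of -1.21 (exact permutation test, two-sided, p = 0.00866, adjusted p = 0.0433 over 20 comparisons). In Nrf2-KO livers it differed by -0.64 (exact permutation p = 0.312, adjusted p = 0.567). In eWAT and iBAT no Pnpla2 to G0s2 comparison passed, and the smallest adjusted p was 0.101 by the exact permutation test, for FL_KO against FL_WT in iBAT (difference -0.38).

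The log2 ratio of Plin1, the coat of fat cells, to Plin2, the general coat, fell in eWAT from 3.19 ± 0.27 in GC_WT to 2.61 ± 0.21 in FL_WT (difference -0.59). In iBAT it went the other way, from 0.82 ± 0.13 in GC_WT to 1.16 ± 0.21 in FL_WT (0.34) and from 0.38 ± 0.29 in GC_KO to 1.09 ± 0.17 in FL_KO (0.71), and it was lower in GC_KO than in GC_WT (difference -0.44). Each of these 4 differences had an adjusted p of 0.0433 by the exact permutation test. Of the 20 comparisons the other 15 did not pass, and the smallest p that 6 mice against 5 allow in this exact permutation test is 0.00433. In eWAT of Nrf2-KO mice the difference of Plin1 to Plin2 was -0.06 (exact permutation p = 0.762, adjusted p = 0.909).

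Whether the flight response of a member differed between WT and Nrf2-KO mice was tested in all 9 tissues. Of 81 pairs of member and tissue, edgeR called 0, with 9 at an unadjusted p under 0.05, and limma called 0. Over all genes edgeR also called 0 in each of the 9 tissues. DESeq2 called 1, Mgll in iBAT (log2 difference -0.25, adjusted p = 0.0325), which edgeR gave as -0.24 (adjusted p = 0.297). A member called in only 1 genotype is therefore not shown to differ between them.

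Over the other 6 tissues 53 pairs of member and tissue were tested. In FL_WT against GC_WT edgeR called 2 of them, with 13 at an unadjusted p under 0.05, in FL_KO against GC_KO 1, with 12, and in GC_KO against GC_WT 1, with 4, all of them higher. In FL_KO against FL_WT edgeR, DESeq2 and limma called 0, with 2 at an unadjusted p under 0.05 by edgeR. In Spl, G0s2 lay at 31.3 to 40.9 TPM (median 35.9) in GC_WT and 36.9 to 53.8 TPM (median 48.0) in FL_WT, with an overlap, and was the 1 of 8 members called higher (log2 fold change 0.38 ± 0.10 (SE), adjusted p = 0.0431), where 1.15% of all genes were. Without FL_WT mouse 06, whose library had an adipocyte marker sum of 127 TPM against 28.1 to 57.3 in the others, its adjusted p was 0.106. The 6 erythroid markers were all called lower in flight in Spl in both genotypes, and their part in this result was not tested. The other members at 20 TPM or more in Spl were Mgll, Lipe, Pnpla2 and Plin2, with Mgll at 0.42 (adjusted p = 0.161) and Plin2 at 0.35 (adjusted p = 0.0886) in WT flight mice. DESeq2 called Plin2 higher there (0.35, adjusted p = 0.0466).

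In Thy, Lpl lay at 6.55 to 9.27 TPM (median 8.31) in GC_WT and 9.53 to 17.3 TPM (median 12.4) in FL_WT without overlap, and rose (log2 fold change 0.42 ± 0.12 (SE), adjusted p = 0.0155), as 1 of 9 members and 11.8% of all genes were called higher. Mgll lay at 3.88 to 6.72 TPM (median 5.79) in GC_KO and at 8.48, 6.93, 8.52, 8.33 and 8.59 TPM in FL_KO, also without overlap, and rose in Nrf2-KO mice (log2 fold change 0.30 ± 0.10 (SE), adjusted p = 0.0165), where 19.3% of all genes were called higher. Without FL_KO mouse 12 the adjusted p of Mgll was 0.0564. The adipocyte markers in Thy summed to 61.3 to 124 TPM in GC_WT and 108 to 166 in FL_WT, and 2 of 8 tested were called higher. Of 10 macrophage markers in Thy 3 were higher in WT and 9 in Nrf2-KO flight mice, and the part of these cells was not tested. Plin2, the member of Thy with a mean near 20 TPM, had log2 fold changes of 0.13 (adjusted p = 0.393) and 0.17 (adjusted p = 0.266). On the TPM scale limma tested 10158 genes in Thy, of which 3923 were higher and 237 lower in FL_WT, and 3429 and 301 in FL_KO.

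In Kid, with 3 mice a group, Mgll was higher in Nrf2-KO mice on the ground. It lay at 16.1 to 16.9 TPM in GC_WT and 22.8 to 27.4 in GC_KO without overlap (log2 fold change 0.58 ± 0.10 (SE), adjusted p = 0.00835), and was the 1 of 10 members called, where 0.569% of all genes were higher. Lpl in Kid was at 269 to 348 TPM in GC_WT and 145 to 241 in FL_WT (log2 fold change -0.84 ± 0.22 (SE), adjusted p = 0.325). G0s2, Pnpla2 and Plin2 also stood at 20 TPM or more in Kid and were not called.

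In TpB edgeR called no member in any contrast, and in flight 3 had an unadjusted p under 0.05 in WT and 1 in Nrf2-KO mice. Of all 18184 genes tested there it called 0 in either flight contrast, and 36 and 37 between genotypes on the ground and in flight. Lpl, Cidec, Mgll, G0s2, Plin1, Lipe, Pnpla2 and Plin2 stood at 20 TPM or more, and Cidec ranged over 27.8 to 95.7 TPM in GC_WT, 5.44 to 36.5 in FL_WT and 0 to 103 in GC_KO. Its log2 fold change in WT flight mice was -1.87 ± 0.74 (SE) and not called. The adipocyte marker sums ranged over 521 to 1373, 219 to 724 and 36.2 to 1348 TPM in the same groups, and the mouse with Cidec at 0 (GC_KO mouse 01) had the lowest marker sum. The part of fat cells in the sample was not tested. In MdB edgeR called none, and the flight contrasts had 1 (WT) and 2 (Nrf2-KO) members with an unadjusted p under 0.05. Of all 16361 genes tested in MdB it called 0 in either flight contrast. G0s2 there had a log2 fold change of -0.67 (adjusted p = 0.592) in WT flight mice, Pnpla2 a change of -0.07 (adjusted p = 0.93) and Plin2 a change of 0.11 (adjusted p = 0.862). In Cbr none was called either, with 0 (WT) and 1 (Nrf2-KO) such members, and of all 16382 genes 4 and 1 were. Mgll lay within 86.0 to 105 TPM in GC_WT and 97.3 to 106 in FL_WT with a log2 fold change of 0.01 (adjusted p = 1), and Pnpla2 within 19.1 to 29.0 and 19.7 to 27.8 with -0.08 (adjusted p = 1).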

How the data were processed

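Single reads of poly(A) RNA (of rRNA-depleted RNA in Thy) from strand-specific libraries were mapped by the authors with STAR 2.6.1 to mm10 and quantified with RSEM 1.3.1, as the submitters' processing notes state. The deposited expected counts are RSEM estimates per gene without normalization, in which reads of overlapping genes can be split. The deposited TPM values are those of RSEM, and 192 further FPKM columns were not used. Groups were taken from the labels. Expected counts were rounded and tested for each tissue with edgeR 4.0.16 under R 4.3.3 (filterByExpr by group, TMM factors, quasi-likelihood test, the 4 groups in 1 fit without flight mouse 04), with Benjamini-Hochberg adjustment over all genes of the tissue. SE is the absolute log2 fold change divided by the square root of F. The p-values measure the spread between mice. Ratios used log2(TPM + 0.1) and an exact two-sided permutation test over mice. The tests were run on simulated data with known changes beforehand. As alternatives limma 3.58.1 was run on log2(TPM + 1) and DESeq2 1.42.0 on the counts, along with RLE factors, no filter, flight mouse 04 included, only the groups of the contrast, the mouse number as a replicate block, the library set in TpB as a block, the muscle level as a covariate in iBAT, and each mouse of groups of up to 5 left out. Others were chosen after seeing the data and are named as such.

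The members and the gene lists were chosen with earlier results of these data known. Named were the members in eWAT, iBAT and Liv, members elsewhere that were called or stood at a mean of 20 TPM or more, per list and contrast up to 2 called genes in each direction with the smallest adjusted p among those at 5 TPM or more, and the 3 genes most like Pnpla2, Plin1, Plin2 and G0s2. Flight and ground mice with the same number are different animals. Their deviations from the group means correlated above 0.1 in 5 of 5 pairs of Nrf2-KO livers (0.22 to 0.37), and in no other tissue and genotype with 3 or more pairs did all pairs, so the block is given beside results in those livers only. Of these 5 flight mice only 2 correlated most with the ground mouse of their own number, so a pairing by number is not shown. Coordinates are those of a GENCODE annotation of GRCm38, and promoters are those of RefSeq.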

Additional observations from a re-analysis of the deposited data

Results flagged for a closer look

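Members were searched in eWAT, iBAT and Liv, in 112 groups of 4 to 10 mice, for a mouse far from the others by Dixon's criterion. Of these groups 5 held such a mouse, and chance flags about 1 in 20. The other tissues were not searched, so such mice there are not listed. In eWAT, Mgll was at 799 TPM in GC_KO mouse 02, above the other GC_KO mice. In iBAT, G0s2 was at 768 TPM in FL_KO mouse 02 and Hcar1 at 27.4 TPM in GC_WT mouse 08. In Liv, Lipe was at 14.3 TPM in GC_WT mouse 10, and Plin2 at 192 TPM in FL_KO mouse 09, below the other flight mice of that group. No member's flight response passed the test of a difference between genotypes with edgeR (0 of 81 pairs of member and tissue, 9 at an unadjusted p under 0.05, and 1 by DESeq2), and over all genes edgeR called 0 in every tissue.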

How the results depend on the processing

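Lpl, Mgll, Plin2 and Hcar1 in eWAT, Lpl in iBAT on the ground, and G0s2, Cidec, Plin2, Mgll and Lpl of WT livers kept their calls under every alternative that tested them. In eWAT, iBAT and Liv mice were left out in turn only from FL_KO, so those runs kept every mouse of the other groups. Limma did not test Lpl in Liv, where its group means lay below 5 TPM. On the TPM scale (limma) the calls of FL_KO against GC_KO in iBAT reversed for Lipe (0.20), Pnpla2 (0.25) and Mgll (0.24). Members called in iBAT, FL_WT against GC_WT, went from 1 to 6 with limma and to 0 with RLE factors, with no filter, with only the groups of the contrast, with the muscle covariate and without the 3 muscle libraries (chosen after seeing the data), and lay between 0 and 1 with a mouse left out. In FL_KO against GC_KO of iBAT the count went from 4 to 2 with no filter and without the 3 libraries, and lay between 2 and 4 with a mouse left out. In FL_KO against FL_WT of iBAT it went from 2 to 1 with limma and to 0 with no filter, with only these groups and without the 3 libraries (1 to 2 with a mouse left out), while DESeq2 called Lipe lower as well (-0.32, adjusted p = 0.0151). In Liv, FL_KO against GC_KO went from 2 to 1 with only these groups (1 to 2 with a mouse left out), and FL_KO against FL_WT from 0 to 1 with DESeq2 and with limma (0 to 1 with a mouse left out). In eWAT, GC_KO against GC_WT went from 1 to 2 with DESeq2. In the other 6 tissues FL_WT against GC_WT went from 2 to 5 with limma, to 4 with only the groups of the contrast and to 1 without the Spl library of FL_WT mouse 06, and FL_KO against GC_KO from 1 to 4 with limma and to 2 with flight mouse 04 (0 to 2 with a mouse left out). The test of a difference between genotypes went from 0 to 1 call with DESeq2. The cause of these changes was not tested. The library set as a block gave 0 calls in TpB.

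With the mouse number as a replicate block, the members called in iBAT went from 1 to 0 in WT and from 4 to 2 in Nrf2-KO mice, Abhd5 in eWAT (adjusted p = 0.0613) and G0s2 in Spl (0.0706) lost their calls, and Mgll in Spl of WT mice gained one (0.028). Ground and flight mice share only a number there. The genotype contrasts cannot be estimated with the block.

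With the mice numbered 01 to 06 against 07 to 12 as a covariate, chosen after seeing the data, the members called went from 2 to 4 (FL_WT against GC_WT) and from 1 to 2 (FL_KO against GC_KO) in the other 6 tissues, and from 0 to 1 in Liv in GC_KO against GC_WT and in FL_KO against FL_WT, in both cases Cidec (log2 fold changes -1.46 and -1.95). Kid had 3 mice in each group and MdB 2 or 3. The ratios were not run with this covariate. The settings run for them were other amounts added to TPM, expected counts, flight mouse 04 included, and each other FL_KO mouse left out. In those settings no ratio changed its side of the threshold or its direction.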

Other observations

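Pnpla2 in Liv divided by mouse number in every group. Mice numbered 01 to 06 lay at 62.1 to 69.8 TPM in GC_WT against 42.2 to 50.5 in those numbered 07 to 12, at 76.7 to 89.5 against 48.3 to 58.9 in FL_WT, at 61.9 to 84.4 against 34.9 to 40.9 in GC_KO, and at 82.1 to 85.2 against 39.9 to 48.0 in FL_KO, without overlap in any of the 4 groups. In Cbr the same held in all 4 groups, from 25.1 to 29.0 against 19.1 to 23.9 TPM in GC_WT to 27.7 to 29.4 against 17.5 to 26.4 in FL_KO. Cidec in Liv divided in this way in 3 of 4 groups, as did Pnpla2 and Mgll in Spl, while Pnpla2 in iBAT and TpB overlapped in all 4 groups. In eWAT Pnpla2 divided the opposite way in 2 of 4 groups, with 2769 to 3277 TPM in the mice numbered 01 to 06 against 3537 to 3921 in the others of FL_WT, and 3200 to 3384 against 3689 to 4105 in FL_KO. Lipe in eWAT divided in all 4 groups, higher in the mice numbered 01 to 06 in GC_WT, GC_KO and FL_KO and lower in FL_WT. G0s2 in eWAT and Hcar1 in Spl were lower in the mice numbered 01 to 06 in 3 of 4 groups. The division was noticed in these data and is given without a test, and the share of all genes that divide so was not counted. In an exact permutation test 3 mice against 3 can reach no p below 0.1, so 1 divided group alone shows little. The labels used here do not say what the numbers mark, such as an order or hour of dissection. In TpB the library numbers in the sample descriptions also part the mice numbered 01 to 06 from the others.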
